A study of Mus musculus with 2 samples.

Results

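The alpha and beta tubulins are the building blocks of microtubules, and the genes of their isotypes were followed in mouse neural stem cells. The members are the 3 alpha genes Tuba1a, Tuba1b and Tuba1c and the 7 beta genes Tubb2a, Tubb2b, Tubb3, Tubb4a, Tubb4b, Tubb5 and Tubb6. They were found by gene name, each name matched 1 row, and together they make up 10 of the 19595 genes of the deposited count table. The cells are labelled as stem cells of the brain from ICR mice at embryonic day 13. The control carries the label psicor and the genotype WT, and the knockdown carries the label sh1 and the genotype KO. The names psicor and sh1 stand for these libraries throughout. The labels do not say how the knockdown was delivered or whether the cells were cultured before sequencing. The series title names Ccdc25 as the gene under study and brain neurogenesis as its subject. The design text speaks of triplicates, whereas the table has a single count column for each of the 2 groups, and whether a column holds 1 library or pooled replicates is not stated. Each column is treated as 1 library. No difference given here therefore has a replicate check, no test was made, and each 95% interval covers counting error alone.

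An alpha and a beta tubulin pair up into the dimer from which every microtubule is assembled. Mammals encode several isotypes of each partner in separate genes, which are used to different extents by dividing progenitors, neurons and glia. The isotypes differ most in the acidic tail at the carboxyl end, which projects from the microtubule surface and is where enzymes remove or restore the last tyrosine of alpha tubulin and add glutamate or glycine chains. In the developing brain Tuba1a is the main alpha isotype of young neurons, Tubb3 is a standard marker of neurons, Tubb2a and Tubb2b are abundant in neural tissue, and Tubb5 is abundant in progenitors and in many other cells. Tubb4a is a brain isotype found in neurons and in oligodendrocytes, whereas Tuba1b, Tuba1c, Tubb4b and Tubb6 are expressed in many cell types.

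The ends of the coding sequences show how near to each other, and how different, 7 of the members are in the part that carries the isotype's tail. Each line gives the last 48 coding bases, 5′ to 3′ on the coding strand, with the last sense codon in capitals and the stop codon after it. They were read from the GENCODE M21 transcripts (GRCm38), and Tuba4a, an alpha tubulin outside the 10 members, is added for contrast.
Tuba1c: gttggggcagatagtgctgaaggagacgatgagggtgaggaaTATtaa
Tuba4a: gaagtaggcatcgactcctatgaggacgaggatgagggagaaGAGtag
Tubb2a: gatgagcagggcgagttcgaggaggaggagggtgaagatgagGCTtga
Tubb2b: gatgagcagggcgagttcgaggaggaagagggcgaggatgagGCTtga
Tubb3: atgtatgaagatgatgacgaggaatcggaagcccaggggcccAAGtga
Tubb4a: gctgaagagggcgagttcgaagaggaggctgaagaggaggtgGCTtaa
Tubb4b: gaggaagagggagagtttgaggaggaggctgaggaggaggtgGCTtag
Tubb5: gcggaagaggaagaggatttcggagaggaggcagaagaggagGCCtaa
Of the alpha lines shown, Tuba1c ends on a tyrosine codon (TAT) before the stop, and Tuba4a does not. Tubb3 is the member of the beta lines shown that ends on AAG. Over the whole coding sequence the 3 pairs of alpha members were 97.6% to 98.4% identical, and Tubb2a and Tubb2b were 96.5% identical. The other 20 pairs of beta members were 81.1% to 86.5% identical.

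This likeness decides how well a read can be given to 1 gene. Of all distinct 50-base words in a member's annotated transcripts, the share found in no gene at another place was 35.7% for Tuba1a, 25.7% for Tuba1b, 47.3% for Tuba1c, 50.4% for Tubb2a, 63.1% for Tubb2b and 62.2% for Tubb4b. Tubb3 and Tubb6 had 100% of such words to themselves, Tubb5 99.9% and Tubb4a 99.8%. With 100-base words the shares were 50% for Tuba1a, 38.3% for Tuba1b, 54.0% for Tuba1c, 63.1% for Tubb2a, 74.0% for Tubb2b and 79.0% for Tubb4b. The gene that shared most words with Tuba1a and with Tuba1b was Tuba1c. For Tubb2a it was Tubb2b, and for Tubb4b it was the pseudogene Tubb4b-ps1. The read length and the handling of reads that match several places are not given in the sources used here. The single values of Tuba1a, Tuba1b, Tuba1c, Tubb2a, Tubb2b and Tubb4b are therefore less certain than their counts alone make them, and those of Tubb3, Tubb4a, Tubb5 and Tubb6 are little touched in this way. Tubb4b-ps1 had 64 counts with psicor and 52 with sh1 and Tubb2a-ps2 had 30 and 30, both far below the genes they resemble.

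**Figure D1:**
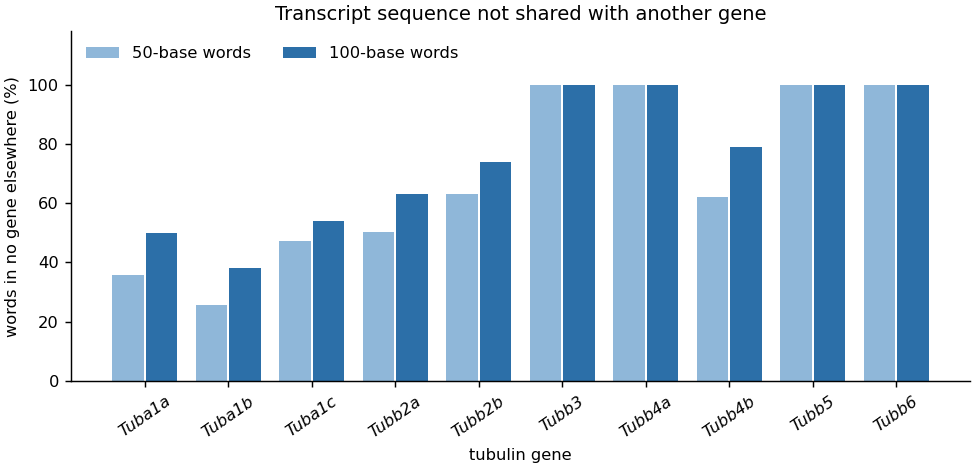
Percentage (vertical axis) of the distinct 50-base (light bars) and 100-base (dark bars) words of each tubulin gene's GENCODE M21 transcripts that occur in the transcripts of no gene at another place. Tubb3, Tubb4a, Tubb5 and Tubb6 stand at or just under 100% with both lengths, and Tuba1b is lowest, at 25.7% and 38.3%.

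The table assigned 16549682 counts to genes with psicor and 16058407 with sh1. Levels are given as CPM, the table's counts brought to a common library size with edgeR's TMM factors, and ratios are knockdown over control. Where a pair of values is given without labels, psicor comes first. Ccdc25 itself stood at 32.8 CPM with psicor and 26.1 CPM with sh1, a ratio of 0.794 (0.697 to 0.904), so most of the targeted gene's counts were still present with sh1. Markers of neural stem cells were present in both libraries: all 10 on the list passed a mean of 1 CPM, led by Vim at 2879 and 3489 CPM and Fabp7 at 2146 and 2714 CPM. All 10 lay above their control level, and their summed level was 6690 and 8655 CPM. Markers of neurons, glia and mesenchyme were also present and differed between the libraries. Their values stand beside tubulin results of the same direction, and 2 libraries cannot show that they vary together.

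Most tubulin genes stood lower with sh1, Tubb3 by far the most, and Tubb4a alone stood higher. Summed over all 10 members, tubulin made up 1.29% of the counts with psicor and 0.837% with sh1. In CPM the sum was 12634 and 8526, a ratio of 0.675 (0.670 to 0.680). Of the 10 members, 9 lay below their control level, where 50.3% of the 14158 genes past a mean of 1 CPM did. The interval of each of the 9 ratios excluded 1, but the share of all genes for which this holds was not computed. With so many counts small differences also exclude 1, as for Map2 at a ratio of 1.08 (1.05 to 1.11). Only Tubb3 was at least 2-fold lower, where 7.76% of the 14158 genes were, and 0 members were at least 2-fold higher, where 7.64% of those genes were. At a threshold of 1.5-fold, 6 members were lower, against 15.7% of genes, and 1 member (Tubb4a) was higher, against 16% of genes. With total counts or the authors' CPM the Tubb4a ratio was 1.49, so that this 1.5-fold call was lost. The median log2 fold of the members was -0.61, beside -0.0042 over all 14158 genes. All 10 members are abundant, with a mean of at least 100 CPM. Among the 2327 genes that abundant, 2.58% were at least 2-fold lower, 4.77% at least 2-fold higher, 7.91% at least 1.5-fold lower and 49.1% below their control level, and the median log2 fold was 0.0062.

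**Figure D2:**
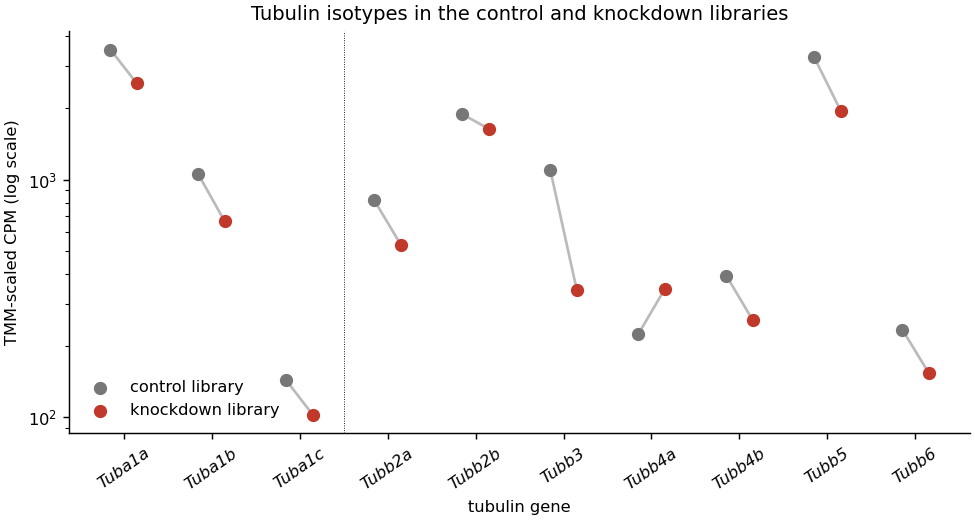
TMM-scaled CPM (vertical axis, log scale) of the 10 tubulin genes in the control (psicor, grey) and the knockdown (sh1, red), 1 library each, with alpha genes left of the dotted line and beta genes right of it. The grey line of Tubb3 drops most steeply, from 1098 to 344 CPM, and that of Tubb4a is the only one to climb, from 224 to 346 CPM.

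Tubb3, the neuronal beta isotype, had the largest difference of the 10. Tubb3 (ENSMUSG00000062380, chromosome 8, 123411424 to 123422015, plus strand) had 18497 counts with psicor and 5428 with sh1. These correspond to 1098 and 344 CPM, so Tubb3 was 3.19-fold lower with sh1 (counting interval 3.09 to 3.29). Its log2 fold was -1.67, and 437 of the 14158 genes (3.09%) lay further below their control level, or 0.774% of the genes past a mean of 100 CPM. With psicor Tubb3 ranked 54th of all genes by CPM and with sh1 416th.

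Other neuron genes lay lower together with Tubb3. Of the 12 neuron markers, 7 were at least 2-fold lower, 0 were 2-fold higher and 11 lay below their control level, with a median log2 fold of -1.33 and a summed level of 2779 CPM with psicor and 1343 CPM with sh1. None of the 12 was at 0 in either library. Gap43, a growth cone protein, had a ratio of 0.318 (0.306 to 0.330), next to 0.314 (0.304 to 0.323) for Tubb3. Stmn2, a tubulin-binding stathmin of neurons, had a ratio of 0.262 (0.250 to 0.275), and Stmn3, its relative, 0.514 (0.490 to 0.538). Map2, the dendritic microtubule-associated protein, was the neuron marker that did not lie lower, with 489 and 527 CPM and a ratio of 1.08 (1.05 to 1.11). Fewer neurons and less RNA per neuron cannot be told apart in such bulk libraries, and the part of neuron content in the Tubb3 difference was not tested.

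Tubb4a was the 1 member above its control level. Tubb4a (ENSMUSG00000062591, chromosome 17, 57080066 to 57087782, minus strand) had 3768 counts with psicor and 5456 with sh1, which is 224 and 346 CPM and a ratio of 1.55 (1.48 to 1.61). The difference stayed within 2-fold, and 10.4% of the genes past that mean of 100 CPM lay further above their control level. Tubb4a and Tubb3 thereby reached nearly the same number of counts with sh1. There were 4.91 counts of Tubb3 per count of Tubb4a with psicor (4.74 to 5.09) and 0.995 with sh1 (0.958 to 1.03), a ratio that no library scaling can move.

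Genes of the oligodendrocyte lineage and of astrocytes lay higher together with Tubb4a. Of the 8 oligodendrocyte lineage markers, 7 were at least 2-fold higher, with a summed level of 131 CPM with psicor and 1392 CPM with sh1 and a median log2 fold of 3.86. Cnp, a myelin enzyme that binds tubulin, stood at 85.2 and 565 CPM, and Sox10, a transcription factor of the lineage, at 11.3 and 237 CPM. Mog, a late myelin protein, was the 1 marker below its control level, with 24 and 11 counts. The 7 astrocyte markers in the table all lay above their control level, 5 of them at least 2-fold, with a summed level of 526 and 5032 CPM. Apoe, a lipid carrier, and Aldoc, a glycolytic enzyme, were the most abundant of them, at 3484 and 774 CPM with sh1. None of these glial markers was at 0 in either library, and their part in the Tubb4a difference was not tested.

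Tubb5, the most counted beta isotype, stood at 3265 CPM with psicor and 1949 CPM with sh1. Tubb5 (ENSMUSG00000001525, chromosome 17, 35833921 to 35838306, minus strand) had 55013 and 30730 counts and a ratio of 0.597 (0.589 to 0.605). After Tubb3 this was the furthest difference among the members. Among genes past a mean of 100 CPM, 5.07% lay further below their control level.

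Markers of dividing cells lay lower as well. All 10 of them were below their control level and 4 passed 2-fold, and the list's median log2 fold was -0.88 and a summed level of 1331 and 747 CPM. Top2a, the topoisomerase of dividing cells, had a ratio of 0.574 (0.548 to 0.602), Mki67 0.625 (0.595 to 0.656), the mitotic cyclin Ccnb1 0.594 (0.562 to 0.628) and the kinase Cdk1 0.558 (0.525 to 0.592). These 4 are the most abundant of the list, and none of them passed 2-fold. The markers past 2-fold were Anln at 0.343 (0.299 to 0.393), Kif20a at 0.449, Bub1 at 0.478 and Cenpe at 0.484. The remaining markers were Aurkb at 0.529 and Kif11 at 0.683. Exons of Cdc23, read in the other direction, cover 29.3% of the Kif20a exon length, so the Kif20a value is less certain. The neural stem cell markers went the other way, with all 10 above their control level and a median log2 fold of 0.73. The part of the dividing cell and stem cell markers in the tubulin differences was not tested.

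Tubb2b, a beta isotype of the developing brain, was the least changed member in the downward direction. Tubb2b (ENSMUSG00000045136, chromosome 13, 34126748 to 34130466, minus strand) had 31738 and 25791 counts, or 1883 and 1635 CPM, and a ratio of 0.868 (0.854 to 0.883). Its neighbour Tubb2a (ENSMUSG00000058672, chromosome 13, 34074274 to 34078007, minus strand) had 13765 and 8405 counts, or 817 and 533 CPM, and a ratio of 0.652 (0.635 to 0.670). The intervals of this pair do not overlap, although the genes lie within 56.2 kb of each other and encode the same tail over the bases shown. Tubb2b had 2.31 counts per Tubb2a count with psicor (2.26 to 2.35) and 3.07 with sh1 (2.99 to 3.15). Summed, so that reads swapped between the pair do not matter, Tubb2a and Tubb2b had a ratio of 0.803 (0.792 to 0.814).

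The remaining beta members, Tubb4b and Tubb6, had ratios next to that of Tubb2a. Tubb4b (ENSMUSG00000036752, chromosome 2, 25222160 to 25224702, minus strand) had 6649 and 4040 counts, or 395 and 256 CPM, and a ratio of 0.649 (0.624 to 0.675). It shares 121 exonic bases with Fam166a on the opposite strand, which had 4 and 6 counts. Tubb6 (ENSMUSG00000001473, chromosome 18, 67390717 to 67402748, plus strand) had 3941 and 2424 counts, or 234 and 154 CPM, and a ratio of 0.657 (0.625 to 0.692). The intervals of Tubb2a, Tubb4b and Tubb6 overlap, so these data do not order the 3 ratios. Mesenchyme markers lay lower as well: 6 of the 6 past the minimum were at least 2-fold lower, the summed level of the 7 in the table was 332 and 40.9 CPM, and Lum had 27 counts with psicor and 0 with sh1. Their part in the Tubb6 difference was not tested.

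The ratios of the 3 alpha members spanned a narrower range than those of all 7 beta members. The beta range is wide because of Tubb3, Tubb2b and Tubb4a. The other beta members lay between 0.597 and 0.657, which is closer together than the alpha members. Reads are also hard to divide among the alpha genes, so the spread of their ratios is uncertain. Tuba1a (ENSMUSG00000072235, chromosome 15, 98949841 to 98953551, minus strand) had 59403 counts with psicor and 40066 with sh1, or 3525 and 2541 CPM, a ratio of 0.721 (0.712 to 0.730). It was the 7th most counted of all genes with psicor and the 20th with sh1. Tuba1b (ENSMUSG00000023004, chromosome 15, 98931425 to 98934565, minus strand) had 17725 and 10512 counts, or 1052 and 667 CPM, a ratio of 0.634 (0.619 to 0.649), and its interval lies below that of Tuba1a. Tuba1c (ENSMUSG00000043091, chromosome 15, 99029891 to 99038105, plus strand) had 2406 and 1615 counts, or 143 and 102 CPM, a ratio of 0.717 (0.673 to 0.764), which the interval does not separate from Tuba1a. The 3 genes lie within 107 kb. Beyond their shared sequence, Tuba1a shares 473 and Tuba1b 426 exonic bases with Gm49450, a gene annotated across both on the same strand and not analysed here, and Tuba1b shares 87 with an antisense gene.

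Summed by partner, alpha and beta tubulin were lower by similar amounts. The alpha total stood at 4720 CPM with psicor and 3310 CPM with sh1, a ratio of 0.701 (0.694 to 0.709). The beta total was 7914 and 5217 CPM, with a ratio of 0.659 (0.653 to 0.665). Without Tubb3 the beta ratio was 0.715 (0.708 to 0.721), just above the alpha ratio and with an overlapping interval. Without both Tubb3 and Tubb4a it was 0.687 (0.680 to 0.693), below the alpha ratio. The order of the alpha and beta ratios therefore depends on which members are left out. There were 0.596 alpha counts per beta count with psicor (0.591 to 0.602) and 0.634 with sh1 (0.627 to 0.641). A total does not depend on how reads were divided among its own members, but reads set aside for matching several of them would be missing from it.

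Within the beta total the isotype mix differed between the libraries. Tubb3 supplied 13.9% of beta counts with psicor (13.7% to 14.1%) and 6.60% with sh1 (6.43% to 6.77%), a change of -7.27 percentage points (-7.52 to -7.02). Tubb4a supplied 2.83% and 6.63%, a change of 3.81 points (3.61 to 4). Tubb2b supplied 23.8% and 31.3%, a change of 7.55 points (7.16 to 7.94). Tubb5 supplied 41.2% and 37.4%, a change of -3.90 points (-4.32 to -3.47). Set against Tubb5, there were 0.336 counts of Tubb3 with psicor and 0.177 with sh1, and 0.577 and 0.839 counts of Tubb2b. So Tubb2b took a larger share although its own level was lower, because its ratio lay above that of the total.

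The shares of Tubb2a, Tubb4b and Tubb6 as counted were not distinguishable between the libraries at this depth. Tubb2a supplied 10.3% and 10.2%, a change of -0.10 points (-0.37 to 0.16). Tubb4b supplied 4.99% and 4.91% (-0.26 to 0.11 points), and Tubb6 2.95% and 2.95% (-0.16 to 0.14 points). When Tubb3 was left out of the total, each of these shares was lower with sh1, by 1.05 points for Tubb2a, 0.53 for Tubb4b and 0.28 for Tubb6. With Tubb3 kept, counts were also divided by the number of a gene's distinct words found in no other gene. The changes were then -0.95 points for Tubb2a and -0.31 for Tubb4b with 50-base words. With 100-base words the change was -0.71 for Tubb2a. Shares taken this way differ in size from those as counted, and no interval was computed for them. Among the alpha members Tuba1a supplied 74.7% with psicor and 76.8% with sh1, Tuba1b 22.3% and 20.1%, and Tuba1c 3.03% and 3.09%. The alpha changes were 2.08 points for Tuba1a (1.6 to 2.55), -2.15 for Tuba1b (-2.59 to -1.70) and 0.07 for Tuba1c (-0.12 to 0.26).

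**Figure D3:**
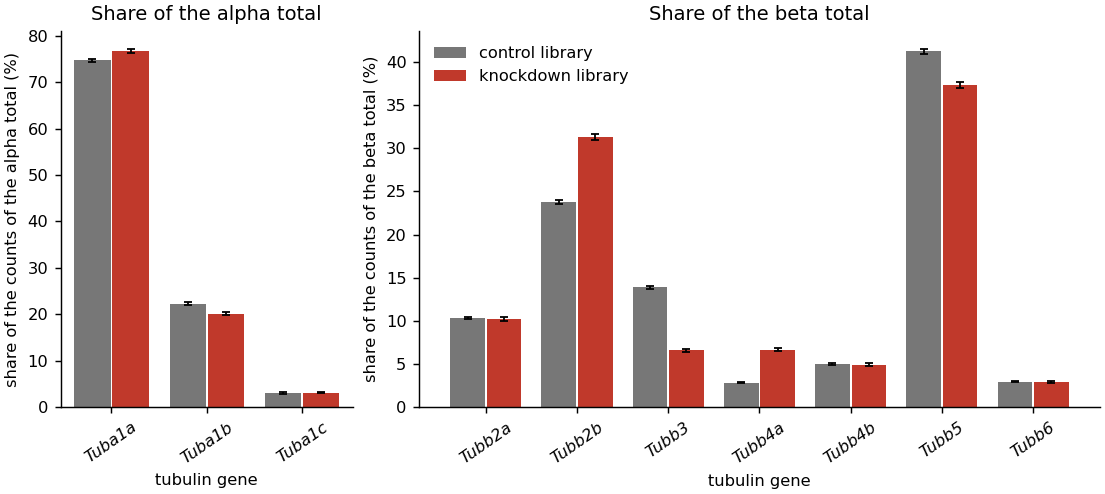
Share (vertical axes, %) of each gene in the counts of the alpha total (left) and of the beta total (right), in the control (psicor, grey bars) and the knockdown (sh1, red bars), with exact binomial 95% intervals that cover counting error only. Tubb3 is at 13.9% and 6.60%, Tubb4a at 2.83% and 6.63%, and Tubb2b at 23.8% and 31.3%, whereas Tubb2a, Tubb4b and Tubb6 have bars of nearly the same height.

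Levels of different genes can be set side by side only per length, and for this the CPM were divided by the merged exon length in kilobases. Per kilobase, Tuba1a led in both libraries, at 1955 with psicor and 1409 with sh1. With psicor Tubb5 followed at 981, then Tubb2b at 821, Tubb3 at 588, Tuba1b at 561, Tubb2a at 507 and Tubb4b at 189. Tubb4a at 100.4 (97.2 to 104) and Tubb6 at 96.0 (93.0 to 99.0) have overlapping intervals, and Tuba1c was last at 62.4.

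With sh1 Tubb2b stood second at 713 and Tubb5 next at 586. Tuba1b followed at 355, Tubb2a at 331, Tubb3 at 184, Tubb4a at 155, Tubb4b at 123, Tubb6 at 63.1 and Tuba1c at 44.8. By this length Tubb3 went from the 4th to the 6th place and Tubb2b from below Tubb5 to above it. The order depends on the length used: with the length of the main transcript alone, Tuba1b at 603 passed Tubb3 at 588 with psicor, Tubb6 at 133 passed Tubb4a at 100.4, and with sh1 Tubb2b at 749 and Tubb5 at 736 were close, with Tubb4b at 160 above Tubb4a at 155. Per distinct word found in no other gene, Tubb2b was already above Tubb5 with psicor. The shares of the beta total were 29.8% against 22.0% for 50-base words and 28.7% against 24.0% for 100-base words. These words are pooled over all annotated transcripts of a gene. For Tubb5 the 3362 such words of 50 bases exceed its merged exon length of 3327 bases. A larger divisor lowers the share, so this order also depends on the divisor. As shares per kilobase of exon, Tubb3 made up 17.9% of the beta total with psicor and 8.55% with sh1.

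The other alpha tubulins in the table were scarce. Tuba4a, the alpha isotype without an encoded final tyrosine, had 189 and 86 counts, or 11.2 and 5.45 CPM, a ratio of 0.486 (0.372 to 0.631), and it shares 1379 exonic bases with Stk16 on the opposite strand, which had 1259 and 1333 counts. Whether counting used strand is not stated, so the Tuba4a value is uncertain. Tuba8 had 13 and 8 counts. The 4 gamma, delta and epsilon tubulins, which serve nucleation and centrioles, all lay below their control level and within 2-fold. Tubg1, the main gamma tubulin, had levels of 157 and 144 CPM and a ratio of 0.916 (0.865 to 0.969). Tubg2 had a ratio of 0.889 (0.743 to 1.06), Tubd1 0.801 (0.652 to 0.983) and Tube1 0.499 (0.385 to 0.642), the last counted as within 2-fold because the log2 fold adds 0.5 to each count.

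Genes that fold, nucleate and modify tubulin had list medians between -0.25 and 0.06, nearer to 0 than the -0.61 of the 10 members, a description with no test. Over 8 lists of such genes, other tubulins included, 57 genes passed 1 CPM, of which 1 was at least 2-fold lower (Tuba4a), 2 were at least 2-fold higher (Sirt2 and Agbl2) and 54 lay within 2-fold. Both are smaller shares than the 7.76% and 7.64% of all genes past 1 CPM. Among genes past 100 CPM the shares were 2.58% lower and 4.77% higher, and the related lists hold both abundant and scarce genes. With each other scaling the related counts were 2 lower and 1 higher. These few genes therefore give no trait particular to the related lists.

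The chaperonin CCT and its partner prefoldin, which fold new tubulin and actin, had 14 of 14 genes within 2-fold, 13 below their control level, and a median log2 fold of -0.25. Of all genes past 1 CPM, 50.3% lay below their control level, 7.76% were at least 2-fold lower and 7.64% at least 2-fold higher. Most genes were thus within 2-fold, so the counts within 2-fold mark out none of the related lists. Cct2 had a ratio of 0.895 (0.866 to 0.925), Cct5 0.909 (0.880 to 0.940), Cct3 0.820 (0.792 to 0.849) and Cct7 0.782 (0.755 to 0.809). All 7 genes listed as folding cofactors lay within 2-fold with a median of -0.13. Of these, 6 lay below their control level and 1 above, Tbcel, with a ratio of 1.77 (1.55 to 2.02). The most abundant were Tbcb with a ratio of 0.772 (0.719 to 0.830), Tbca 0.871 (0.807 to 0.941), Tbcd 0.982 (0.890 to 1.08) and the small GTPase Arl2 0.959 (0.857 to 1.07). Tbcb shares 325 exonic bases with Polr2i on the opposite strand, and Tube1, Tubgcp2, Tubgcp3, Tbcd, Tbcel, Arl2, Cct7, Atat1, Sirt2, Cnp and Map2 also share some with an opposite-strand gene. The 9 genes of the gamma tubulin ring complex, the template of new microtubules, were also within 2-fold, 5 below and 4 above their control level. Their median was -0.10, with Cdk5rap2 at 0.900 (0.823 to 0.983), Tubgcp2 at 1.01 (0.925 to 1.11), Tubgcp3 at 1.24 (1.13 to 1.36) and Mzt2 at 1.46 (1.31 to 1.63).

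The enzymes that act on the end of alpha tubulin and on its acetylated lysine were mixed. Ttl, the ligase that puts the final tyrosine back, had levels of 67.2 and 36.5 CPM and a ratio of 0.542 (0.490 to 0.6). Vash1, a carboxypeptidase that removes it, had levels of 94.8 and 144 CPM and a ratio of 1.52 (1.43 to 1.62). Its relative Vash2 went the other way, with levels of 42.3 and 31.6 CPM and a ratio of 0.748 (0.666 to 0.840). Sirt2, a deacetylase of tubulin that is abundant in myelinating cells, had levels of 147 and 640 CPM and a ratio of 4.36 (4.17 to 4.55). Atat1, the tubulin acetyltransferase, had a ratio of 1.03 (0.966 to 1.09).

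The list of enzymes of glutamate and glycine chains and their family relatives had 11 of 12 genes within 2-fold and a median of -0.12. Ttll12 had a ratio of 0.816 (0.757 to 0.878), the glutamylase Ttll1 0.714 (0.644 to 0.790), Ttll4 0.802 (0.721 to 0.892) and the deglutamylase Agtpbp1 0.591 (0.525 to 0.665). Agbl2 had 12 and 23 counts, and its interval (0.978 to 4.52) includes 1. Cells also destroy tubulin mRNA when free dimers accumulate, through Ttc5, which recognises the nascent tubulin chain, with Scaper and Cnot11. Ttc5 had a ratio of 1.0 (0.915 to 1.10), Cnot11 0.982 (0.891 to 1.08) and Scaper 0.818 (0.699 to 0.956).

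**Figure D4:**
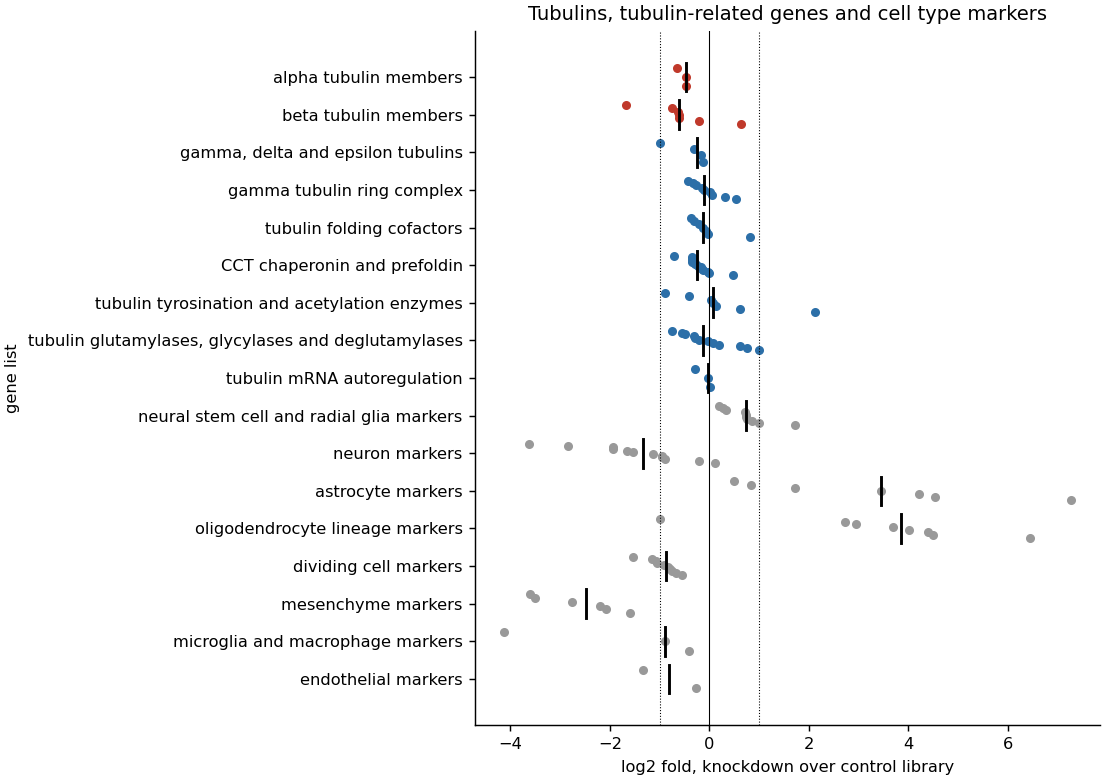
Log2 fold, knockdown over control library (horizontal axis), of each gene with a mean of at least 1 CPM, by gene list (vertical axis), with tubulin members in red, related genes in blue, cell type markers in grey, the list median as a black bar and 2-fold as dotted lines. Lists with at least 2 such genes are shown. The median bars of the alpha and beta members stand at -0.48 and -0.62, left of those of the blue lists, and Tubb3 is the red point at -1.67.

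Markers of further cell types were scarce. Of the 8 microglia and macrophage markers 3 passed 1 CPM, their summed level was 37.0 CPM with psicor and 12 CPM with sh1, and 3 were at 0 with sh1 (Csf1r, Cx3cr1 and Ptprc). The 5 endothelial markers in the table summed to 4.93 and 2.54 CPM. In the authors' deposited table, which gives no name for its test, 1 member (Tubb3) is among the 3665 genes marked significant, which are 18.7% of all genes.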

How the data were processed

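The table has 1 column of counts for the control and 1 for the knockdown, each treated as 1 library; whether replicates were pooled is not stated. HTSeq 0.6.0, TopHat2 2.0.12, Bowtie2 2.2.3 and the build mm9 appear in the submitters' processing notes, without order or settings. The authors deposited raw counts per gene and CPM made from them with 1 factor per library, a ratio (fold change) of these CPM, its log2, and p-values of an unnamed test, per the file headers. Gene positions are the table's own, and of 19595 gene IDs 18251 have the same start and end in GENCODE M21 (GRCm38).

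All other values come from the counts, scaled with edgeR 4.0.16 TMM factors over the whole table (R 4.3.3). The log2 fold adds 0.5 to each count. Ratios carry exact conditional binomial 95% intervals, shares exact binomial (Clopper-Pearson) ones and levels per kilobase exact Poisson ones. Reads copied by PCR are not independent molecules. A floor of 3 counts is 0.178 CPM with psicor (control) and 0.190 CPM with sh1 (knockdown). Per-length values use merged GENCODE M21 exons, and coding identity was computed with Biopython 1.88. The calculation was tested on simulated data.

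Members and gene lists were chosen with earlier results of these data known. Named are all members, the 4 most abundant of each related list, and related genes past 2-fold where 5 or fewer were. This rule was not applied in full to the marker lists. The markers named are mostly from the 4 most abundant of their list, and many markers past 2-fold are not named. Sox10, Mog, Lum, those at 0 and the dividing cell markers beyond the 4 most abundant were named after their values were seen. So were Tbcel and Vash2 of the related lists, which fall outside the rule. Alternatives were DESeq2 1.42.0 size factors, total counts, the authors' CPM, other minimums, thresholds and prior counts, and other lengths and totals for shares.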

Additional observations from a re-analysis of the deposited data

How the results depend on the processing

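All 10 member ratios kept their direction under every scaling tried. The alpha total ratio was 0.676 with total counts and with the authors' CPM. The beta total ratio was 0.652 with DESeq2 size factors and 0.636 with total counts or the authors' CPM. It was 0.715 without Tubb3 and 0.687 without Tubb3 and Tubb4a, both sets chosen after seeing the data. At 1.5-fold, 6 members were lower and 1 (Tubb4a) was higher, a call lost with total counts or the authors' CPM (ratio 1.49).

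Of the related genes, 2 were at least 2-fold lower with each other scaling or without an expression minimum, 0 with a minimum of 10 CPM or a prior count of 5, and 5 at 1.5-fold. At least 2-fold higher were 1 with each other scaling, with a minimum of 10 CPM or with a prior count of 5, 3 without an expression minimum, and 6 at 1.5-fold.

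Share changes in percentage points kept their sign where the main interval excluded 0. Per kilobase of exon they were 8.07 for Tubb2b, -9.35 for Tubb3, 4.15 for Tubb4a and -2.71 for Tubb5. Per distinct word found in no other gene, chosen after seeing the data, they were 8.24 for Tubb2b with either word length, and -7.88 for Tubb3 with 100-base words. With 50-base and 100-base words they were 2.97 and 3.40 for Tubb4a, -2.69 and -2.76 for Tubb5, and -0.95 and -0.71 for Tubb2a, and with 50-base words -0.31 for Tubb4b. No interval was computed for these, so the nearly equal shares of Tubb2a and Tubb4b hold only for shares as counted. With Tubb3 left out of the beta total, also chosen after seeing the data, the share changes were 5.93 for Tubb2b, -7.90 for Tubb5, -1.05 for Tubb2a, -0.53 for Tubb4b and -0.28 for Tubb6. The other beta total alternative holds the same 7 genes and changed nothing. No paired analysis was possible because each group has 1 library.

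With 1 column per group, the spread between replicates is unknown.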
